A study of Homo sapiens with 8 samples.

Results

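The factors that recognize the branch point and the 3′ splice site were followed in A549 cells, an established human lung adenocarcinoma line, as 10 genes: U2AF1, U2AF2, U2SURP, SF1, SF3A1, SF3A3, SF3B1, SF3B2, SF3B3 and PUF60. They were chosen by name, as U2AF, SF3 and partner genes that act with RBM39 at this step, and were found among 60624 counted Ensembl genes by their identifiers in GENCODE on GRCh38. The choice was made with earlier results of these data known. All 10 were among the 18661 genes that passed the filter on low counts. A549 cells were left untreated or received 0.5 μM indisulam, 5 μM SPHINX31 or both compounds for 24 h. The labels deposited with all libraries instead give 2 μM indisulam and 18 h. Indisulam is a sulfonamide that directs the splicing factor RBM39 to degradation, and SPHINX31 inhibits SRPK1, a kinase of serine and arginine rich splicing factors. Each group had 2 libraries of polyadenylated RNA that were technical replicates, so that every p-value below measures the spread between such libraries and not between independent treatments.

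Splicing begins when the branch point, the polypyrimidine tract and the AG at the end of an intron are recognized together. SF1 binds the branch point, U2AF2 the polypyrimidine tract and U2AF1 the AG, and this early complex recruits the U2 snRNP. SF1 is then displaced, and the SF3A and SF3B complexes of the U2 snRNP clamp the branch point against the U2 snRNA. RBM39 resembles U2AF2 in its domains and contacts both U2AF2 and SF3B1 through a U2AF homology motif.

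The libraries held between 51727369 and 63186989 counts on genes. RBM39 mRNA was 155 ± 2.04 CPM (counts scaled to the TMM-adjusted library size; mean ± SD, n = 2 here and below) in untreated cells, 361 ± 0.648 with indisulam, 175 ± 12.8 with SPHINX31 and 382 ± 13.3 with both. Its log2 fold change was 1.22 with indisulam and 1.30 with the combination. SRPK1 mRNA changed by -0.33 with indisulam and by -0.23 with the combination on the log2 scale. Both compounds act on proteins, so that neither mRNA checks the labels. The epithelial keratin KRT8 lay between 3474 and 4103 CPM in every library, KRT18 between 3378 and 4028 and KRT7 between 1158 and 1869, and the epithelial adhesion genes CDH1 and EPCAM between 70.5 and 106 and between 25.4 and 33.6 CPM. With indisulam KRT7 (log2 fold change -0.39) and CDH1 (-0.30) were called lower and EPCAM (0.18) higher, and KRT8 (-0.06) and KRT18 (-0.09) were not called. With SPHINX31 KRT8 (-0.22), KRT18 (-0.22) and CDH1 (-0.23) were called lower, and KRT7 (0.10) and EPCAM (-0.03) were not called. With the combination KRT8 (-0.13), KRT18 (-0.22), KRT7 (-0.47) and CDH1 (-0.53) were called lower and EPCAM (0.23) higher. The part of these changes in the results on the members was not tested. The lung lineage genes SFTPB, at 0 counts in every library, NKX2-1, with 4 to 11 counts, and SFTPC, with 6 to 18, were absent or near 0. The leukocyte gene PTPRC had at most 3 counts, the endothelial gene PECAM1 at most 2.36 CPM and the fibroblast gene COL1A1 at most 4.65 CPM.

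U2AF1 (ENSG00000160201), the small subunit of U2AF that reads the AG, stood apart because almost no reads were counted on it, between 30 and 68 per library. GRCh38 holds the U2AF1 sequence on chromosome 21 in 2 places, at 43092956 to 43107570 and again at 6484623 to 6499248, both on the minus strand. GENCODE calls the gene in the second place (ENSG00000275895, U2AF1L5) an artifactual duplication of U2AF1. The canonical transcripts of both loci are 945 bases long and differ by 1 substitution, A12C, with the U2AF1 base first and positions counted from the transcript start. Exon 3 is shown as an example, from chr21:43100453-43100519 for U2AF1 and chr21:6492131-6492197 for the copy (GRCh38, minus strand), in lower case throughout because no base differs.
U2AF1 exon 3: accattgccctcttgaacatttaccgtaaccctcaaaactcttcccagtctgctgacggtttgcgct
U2AF1L5 exon 3: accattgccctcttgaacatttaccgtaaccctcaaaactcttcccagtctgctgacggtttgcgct
Of the 8 exons, 7 were identical between the loci. Of the 796 windows of 150 bases, the read length, in the U2AF1 transcript, 784 (98.5%) were found unchanged in the U2AF1L5 transcript. Over the whole gene with its introns, 11976 of 14466 such windows (82.8%) were unchanged, and the genes differed by an edit distance of 29. Reads were paired, so that a pair can cover more than 1 window.

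The copy drew few counts of its own. The U2AF1L5 locus had between 4 and 17 counts per library. Reads set aside for lack of a unique alignment numbered between 103 and 132 per 100 gene counts on chromosome 21 (median 108), the highest of 23 chromosomes, and chromosome 1 followed with a median of 9.19. How many of these reads came from U2AF1 was not tested, so that the U2AF1 values below describe the reads counted and not the level of its mRNA.

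Per kilobase of exon, all members other than U2AF1 were abundant in untreated cells. On this scale, CPM divided by the length of all annotated exons of a gene in kilobases, U2AF2 had the highest level with 64.3 ± 1.65 and SF1 followed with 43.9 ± 0.0847. SF3B2 had 32.1 ± 0.539 and SF3B1 31.4 ± 0.461 on the same scale. SF3A3 (26.2 ± 0.546) and PUF60 (26.0 ± 0.669) overlapped in their libraries, so that their order was not resolved. SF3A1 had 23.6 ± 0.0779, SF3B3 had 20.7 and 21.3 in its libraries and U2SURP had 18.4 ± 0.679, with no overlap between these genes. These 9 genes lay between the percentiles 84.7 and 96.5 of the 14010 tested protein-coding genes on this scale. U2AF1 was listed at 0.0715 ± 0.0186, percentile 5.74. With the length of the canonical transcript in place of all exons, PUF60 moved from rank 6 to rank 2, with 106 CPM per kilobase after 121 for U2AF2, and SF1 from rank 2 to rank 4 with 79.9.

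**Figure D1:**
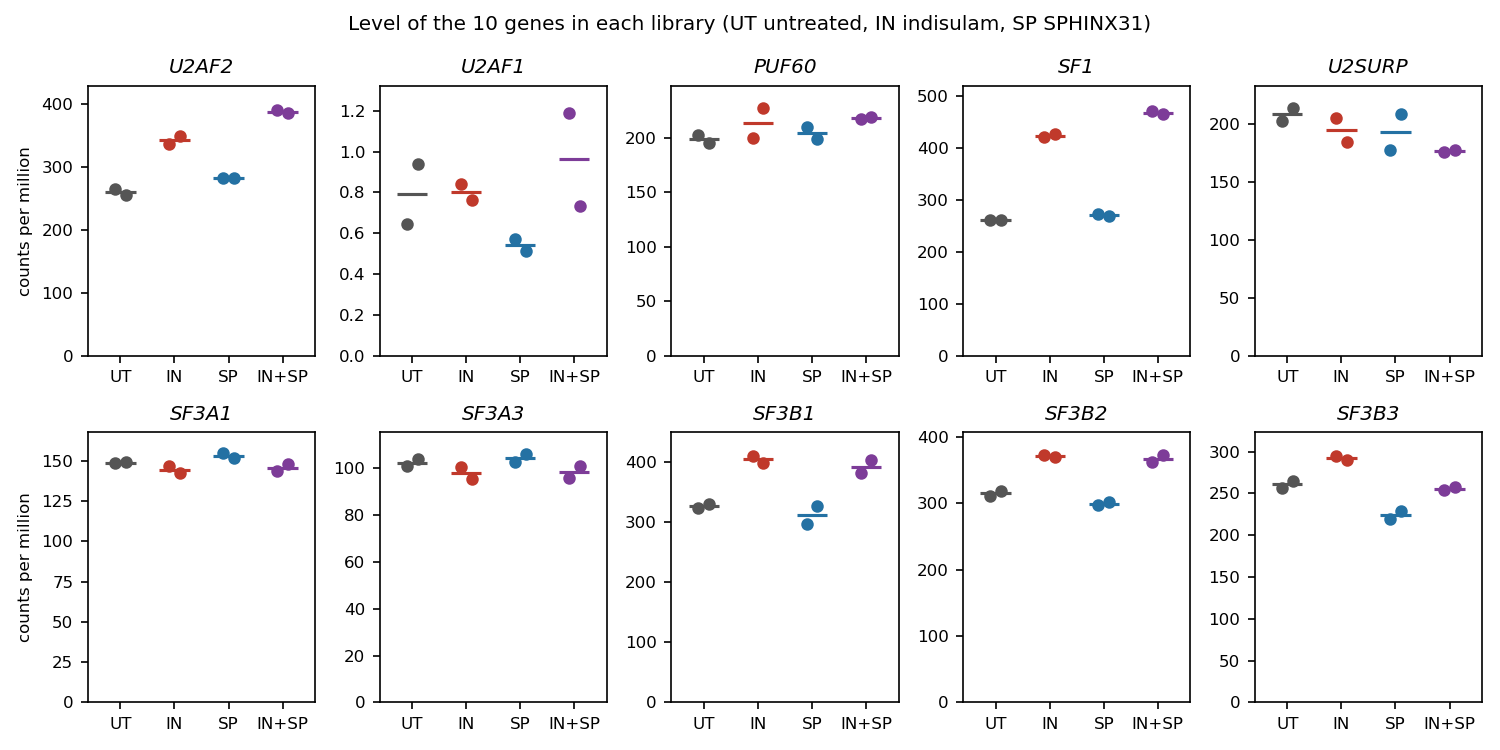
Level of each gene in every library, in CPM on a linear axis that starts at 0 and has its own range in each panel. Points are the 2 libraries of a group (UT untreated, IN indisulam, SP SPHINX31, IN+SP both compounds) and bars are their means. SF1 and U2AF2 are higher in all 4 libraries with indisulam than in the 4 without it, whereas SF3A1 and SF3A3 stay within narrow ranges and U2AF1 lies near 1 CPM.

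The first comparison asked how these genes responded to indisulam. SF1, U2AF2, SF3B1, SF3B2 and SF3B3 rose, by log2 fold changes from 0.17 to 0.70, and none of the 10 fell (edgeR's quasi-likelihood test, Benjamini-Hochberg adjusted p under 0.05 over all tested genes). These were 5 of 10 called, where 43.7% of all tested genes were called in this comparison, 20.1% of them as higher and 23.5% as lower (shares of all tested genes). The median log2 fold change of the members was 0.14, against -0.00414 over all tested genes. As the RNA was from whole cultures, a change in RNA per cell and a change in the kinds of cells present cannot be told apart.

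SF1 (ENSG00000168066, chromosome 11, 64764606 to 64778786), the branch point binding protein, changed most. Its level was 262 CPM in both untreated libraries, 421 and 428 with indisulam, 274 and 270 with SPHINX31 and 471 and 466 with the combination. The 4 libraries with indisulam lay above the 4 without it, with no overlap. With indisulam the log2 fold change was 0.70 (SE 0.0441, adjusted p = 7.02e-08), which is 1.62-fold, and 6.45% of all tested genes had a higher one. With the combination it was 0.84 (SE 0.0441, adjusted p = 8.22e-09), or 1.79-fold. With SPHINX31 alone it was 0.05 (95% interval -0.04 to 0.15, adjusted p = 0.509).

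U2AF2 (ENSG00000063244, chromosome 19, 55654146 to 55674716), the large subunit of U2AF that binds the polypyrimidine tract, had 265 and 255 CPM in untreated libraries and 336 and 350 with indisulam. It had 282 and 283 CPM with SPHINX31 and 390 and 386 with the combination. The groups did not overlap, and the combination libraries were the highest. It rose by 0.40 on the log2 scale with indisulam (SE 0.0464, adjusted p = 1.42e-05) and by 0.58 with the combination (SE 0.0464, adjusted p = 3.61e-07). Its log2 fold change was 0.12 with SPHINX31 (95% interval 0.02 to 0.22, adjusted p = 0.128), which became 0.16 with an adjusted p of 0.0419 when libraries were scaled by their totals alone. A long noncoding RNA gene overlaps U2AF2 on each strand, and the strand setting of the counting was not stated, so that reads of these genes may be mixed or lost.

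PUF60 (ENSG00000179950, chromosome 8, 143816344 to 143830709) is a U2AF2-related protein that binds uridine-rich tracts and assists U2AF. It had 202 and 195 CPM in untreated libraries, 200 and 227 with indisulam, 210 and 198 with SPHINX31 and 217 and 219 with the combination. The first indisulam library lay between the untreated libraries and the second above them. The log2 fold change with indisulam was 0.10 (95% interval -0.03 to 0.23, adjusted p = 0.181) and passed the test only without indisulam replicate 1 (0.19, adjusted p = 0.03). Both combination libraries lay above the untreated ones, with a log2 fold change of 0.14 (95% interval 0.01 to 0.26, adjusted p = 0.0778), which became 0.19 (adjusted p = 0.0163) with scaling by library totals alone. PUF60 also passed when only the groups compared were fitted (adjusted p = 0.0194) and without indisulam replicate 1 (adjusted p = 0.0413) or 2 (adjusted p = 0.0414), and under a block with exchanged numbers chosen after the data were seen (adjusted p = 0.0287).

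U2AF1 had 0.647 and 0.939 CPM in untreated libraries, 0.843 and 0.765 with indisulam, 0.572 and 0.513 with SPHINX31 and 1.19 and 0.734 with the combination. The untreated libraries enclosed both indisulam libraries, and both SPHINX31 libraries lay below all others. Its log2 fold change was 0.03 with indisulam (95% interval -0.55 to 0.60), -0.55 with SPHINX31 (-1.17 to 0.08) and 0.28 with the combination (-0.28 to 0.84), none of which passed the test. These intervals were wider than those of all other members, and differences within them were not detectable at this depth. When the counts of U2AF1 and U2AF1L5 were added together, the 3 log2 fold changes were 0.00, -0.57 and 0.36, with adjusted p of 0.995, 0.242 and 0.251.

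All 3 SF3B members rose with indisulam, each by a smaller log2 fold change than SF1 and U2AF2. SF3B1 (ENSG00000115524, chromosome 2, 197388515 to 197435079), which holds the helix of the branch point and U2 snRNA and is often mutated in myelodysplastic syndromes, had 323 and 330 CPM in untreated libraries and 410 and 398 with indisulam. With SPHINX31 it had 297 and 326 CPM and with the combination 380.5 and 402. The 4 libraries with indisulam lay above the 4 without it. Its log2 fold change was 0.31 with indisulam (SE 0.0539, adjusted p = 0.000493) and 0.26 with the combination (SE 0.0539, adjusted p = 0.00127).

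SF3B2 (ENSG00000087365, chromosome 11, 66050729 to 66069308), a subunit that contacts the intron near the branch point, had 311 and 318 CPM in untreated libraries, 372 and 370 with indisulam, 297 and 302 with SPHINX31 and 362 and 372 with the combination. Here too all libraries with indisulam lay above all without it. Its log2 fold change was 0.24 with indisulam (SE 0.0450, adjusted p = 0.000796) and 0.22 with the combination (SE 0.0449, adjusted p = 0.00104).

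SF3B3 (ENSG00000189091, chromosome 16, 70523791 to 70577670), a scaffold subunit built of WD40-like propellers, was the only member called with each compound alone, higher with indisulam and lower with SPHINX31. It had 257 and 265 CPM in untreated libraries, 295 and 291 with indisulam, 220 and 228 with SPHINX31 and 254 and 257 with the combination. Both indisulam libraries lay above the untreated ones, both SPHINX31 libraries below, and the combination libraries lay on either side of the lower untreated one. The log2 fold change was 0.17 with indisulam (SE 0.0462, adjusted p = 0.00984), -0.22 with SPHINX31 (SE 0.0463, adjusted p = 0.011) and -0.03 with the combination (95% interval -0.13 to 0.07, adjusted p = 0.648). The call with indisulam was lost without untreated replicate 1 (0.15, adjusted p = 0.101) or indisulam replicate 1 (0.16, adjusted p = 0.068). That with SPHINX31 was lost without untreated replicate 1 (adjusted p = 0.0706) or 2 (adjusted p = 0.126) or SPHINX31 replicate 1 (adjusted p = 0.0637), with log2 fold changes of -0.24, -0.20 and -0.19.

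The SF3A members did not pass any test. SF3A1 (ENSG00000099995, chromosome 22, 30331988 to 30356919), which also contacts the U1 snRNP, lay between 142 and 155 CPM in the 8 libraries. SF3A3 (ENSG00000183431, chromosome 1, 37956975 to 37990075), which joins SF3A to the rest of the U2 snRNP, lay between 95.2 and 106 CPM. With indisulam the log2 fold change was -0.04 for SF3A1 (95% interval -0.14 to 0.06) and -0.06 for SF3A3 (-0.18 to 0.05). With the combination it was -0.03 (-0.13 to 0.07) and -0.06 (-0.17 to 0.05). The upper ends of these intervals lay below the estimates for SF3B1, SF3B2 and SF1 in the same comparisons. CCDC157 overlaps SF3A1 on the opposite strand.

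U2SURP (ENSG00000163714, chromosome 3, 142964497 to 143060725), an SR-related protein associated with the U2 snRNP, was the only member called lower with the combination. It had 203 and 214 CPM in untreated libraries, 205 and 184 with indisulam, 178 and 208 with SPHINX31 and 176 and 177 with the combination. Both combination libraries lay below all others, whereas the single treatments overlapped the untreated libraries. The log2 fold change was -0.24 with the combination (SE 0.0713, adjusted p = 0.0133), -0.10 with indisulam (95% interval -0.25 to 0.06) and -0.11 with SPHINX31 (-0.26 to 0.04). The call with the combination was lost without untreated replicate 2 (-0.20, adjusted p = 0.0957), combination replicate 1 (-0.22, adjusted p = 0.0822) or combination replicate 2 (-0.24, adjusted p = 0.0621).

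**Figure D2:**
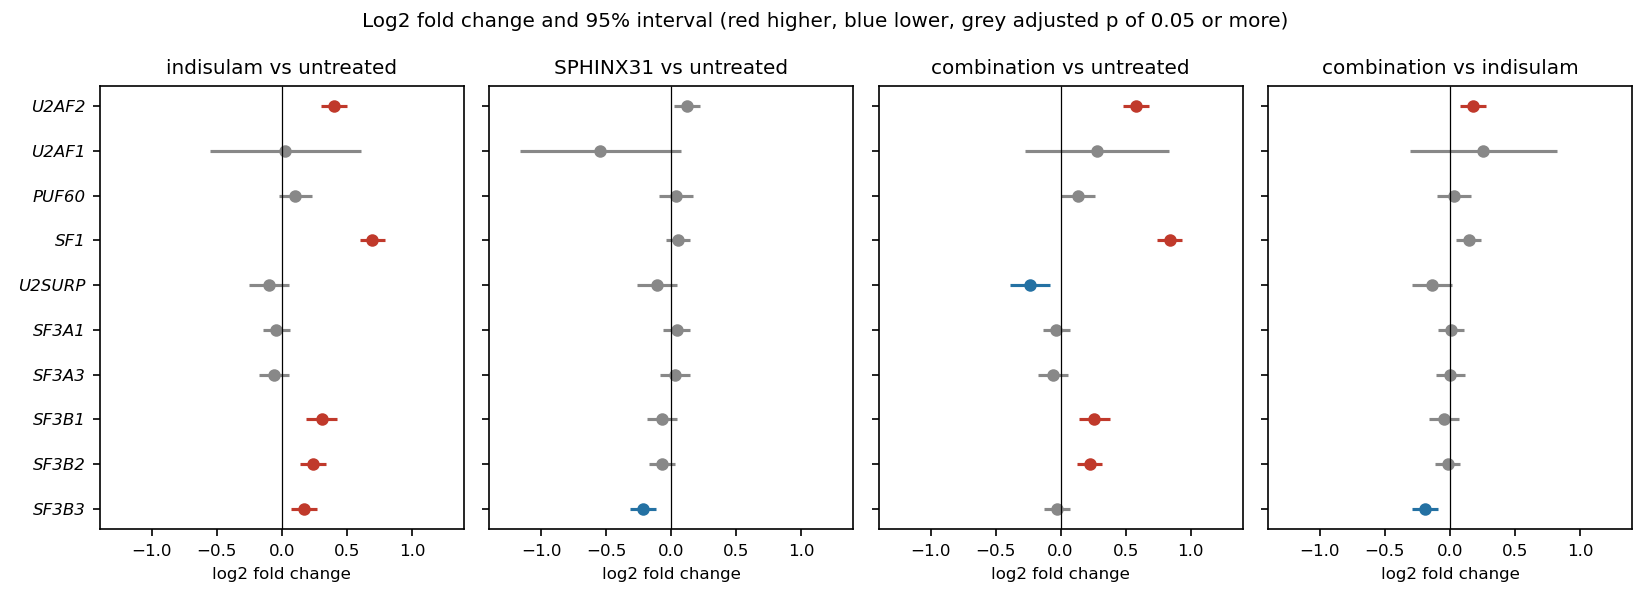
Log2 fold change of each gene (points) with its 95% interval (lines) from edgeR's quasi-likelihood fit in 4 comparisons, where red marks genes called higher, blue genes called lower and grey an adjusted p of 0.05 or more. SF1, U2AF2, SF3B1 and SF3B2 are red with indisulam and with the combination, SF3B3 is red with indisulam and blue with SPHINX31, and the interval of U2AF1 is the widest in every panel.

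SPHINX31 alone was compared with untreated cells to see whether the compound moved these genes by itself. The paper describes potential off-target activity of SPHINX31, and the part of SRPK1 in these values was not tested. Only SF3B3 was called, so that 1 of 10 members was lower and none higher, where 8.61% of all tested genes were called, 4.94% higher and 3.67% lower. At an unadjusted p under 0.05, 2 of 10 members passed, where 4501 of all 18661 tested genes did. The members' median log2 fold change was -0.02, against -0.00637 over all tested genes. With scaling by library totals alone the split of all calls moved from 921 higher and 685 lower to 1341 higher and 515 lower. Of all 18661 tested genes 1856 were then called, and 2 of the 10 members. Apart from U2AF1 and SF3B3, the members lay between -0.11 (U2SURP) and 0.12 (U2AF2).

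The combination was compared with untreated cells and with each compound alone. Against untreated cells SF1, U2AF2, SF3B1 and SF3B2 rose and U2SURP fell, 5 of 10 members, where 50.0% of all tested genes were called, 23.8% higher and 26.3% lower. The members' median log2 fold change was 0.18, against 0.000969 over all tested genes. SF1 had a higher log2 fold change than all but 6.69% of tested genes, and U2AF2 than all but 11.6%. Scaling by library totals alone moved the split of all calls from 4434 higher and 4903 lower to 5331 higher and 4304 lower, and the members called to 5 higher and 1 lower.

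Against SPHINX31 alone, 6 of 10 members were higher with the combination and none lower, where 49.9% of all tested genes were called, 23.4% higher and 26.5% lower. The log2 fold change was 0.79 for SF1, 0.46 for U2AF2, 0.33 for SF3B1, 0.29 for SF3B2 and 0.19 for SF3B3 (adjusted p = 0.0039 for SF3B3 and lower for the others). The sixth was U2AF1, with 0.83 (95% interval 0.22 to 1.43, adjusted p = 0.0257) on 30 and 31 counts against 42 and 68. This call was lost with DESeq2 (adjusted p = 0.0979) and without SPHINX31 replicate 1 (0.92, adjusted p = 0.0641), SPHINX31 replicate 2 (0.76, adjusted p = 0.115) or combination replicate 1 (0.45, adjusted p = 0.283). In U2SURP, with a log2 fold change of -0.13 (95% interval -0.28 to 0.02), the difference passed only without SPHINX31 replicate 1 (-0.23, adjusted p = 0.0165).

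Against indisulam alone, the addition of SPHINX31 left U2AF2 higher and SF3B3 lower, 2 of 10 members, where 7.50% of all tested genes were called, 3.17% higher and 4.32% lower. For U2AF2 the log2 fold change was 0.18 (95% interval 0.08 to 0.28, adjusted p = 0.0336) and for SF3B3 it was -0.20 (-0.29 to -0.10, adjusted p = 0.0216). With scaling by library totals alone the split of all calls moved from 592 higher and 807 lower to 942 higher and 498 lower, and the members called were 2 higher and none lower. The U2AF2 call was lost without any 1 of the untreated, indisulam or combination libraries (0.15 to 0.20, adjusted p from 0.066 to 0.227), with only the groups compared (adjusted p = 0.055) and with the replicate number as a block (adjusted p = 0.0537). The SF3B3 call was lost without any 1 of the indisulam or combination libraries (-0.21 to -0.18, adjusted p from 0.0615 to 0.144) and with scaling by library totals (-0.15, adjusted p = 0.06). SF1 differed by 0.14 (95% interval 0.05 to 0.24, adjusted p = 0.0658) and passed with scaling by library totals (0.19, adjusted p = 0.0181), without SPHINX31 replicate 1 (adjusted p = 0.0399) or 2 (adjusted p = 0.0401), and under the block with exchanged numbers (adjusted p = 0.0284).

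The paper compared the number of splicing errors with both compounds to the sum of the single treatments, and reported more skipped exons than that sum. Here the interaction was tested on the log2 scale of gene counts. This is another measure, so that the result below does not answer the question of splicing errors. No member and none of the 18661 genes passed edgeR's quasi-likelihood test after Benjamini-Hochberg adjustment (0% called), although 1584 genes and none of the members had an unadjusted p under 0.05, and DESeq2 called 30 genes and no member. The sum of the single log2 fold changes was 0.75 for SF1 and that of the combination 0.84, a difference of 0.09 (95% interval -0.04 to 0.22). For U2AF2 the sum was 0.52 and the combination 0.58, with an interval of the difference from -0.09 to 0.20. For SF3B3 they were -0.05 and -0.03 (-0.12 to 0.16), and for U2SURP -0.21 and -0.24 (-0.25 to 0.19). U2AF1 had the widest interval, from -0.04 to 1.64 around 0.80, and for the other 9 members the bounds lay within -0.25 and 0.22.

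**Figure D3:**
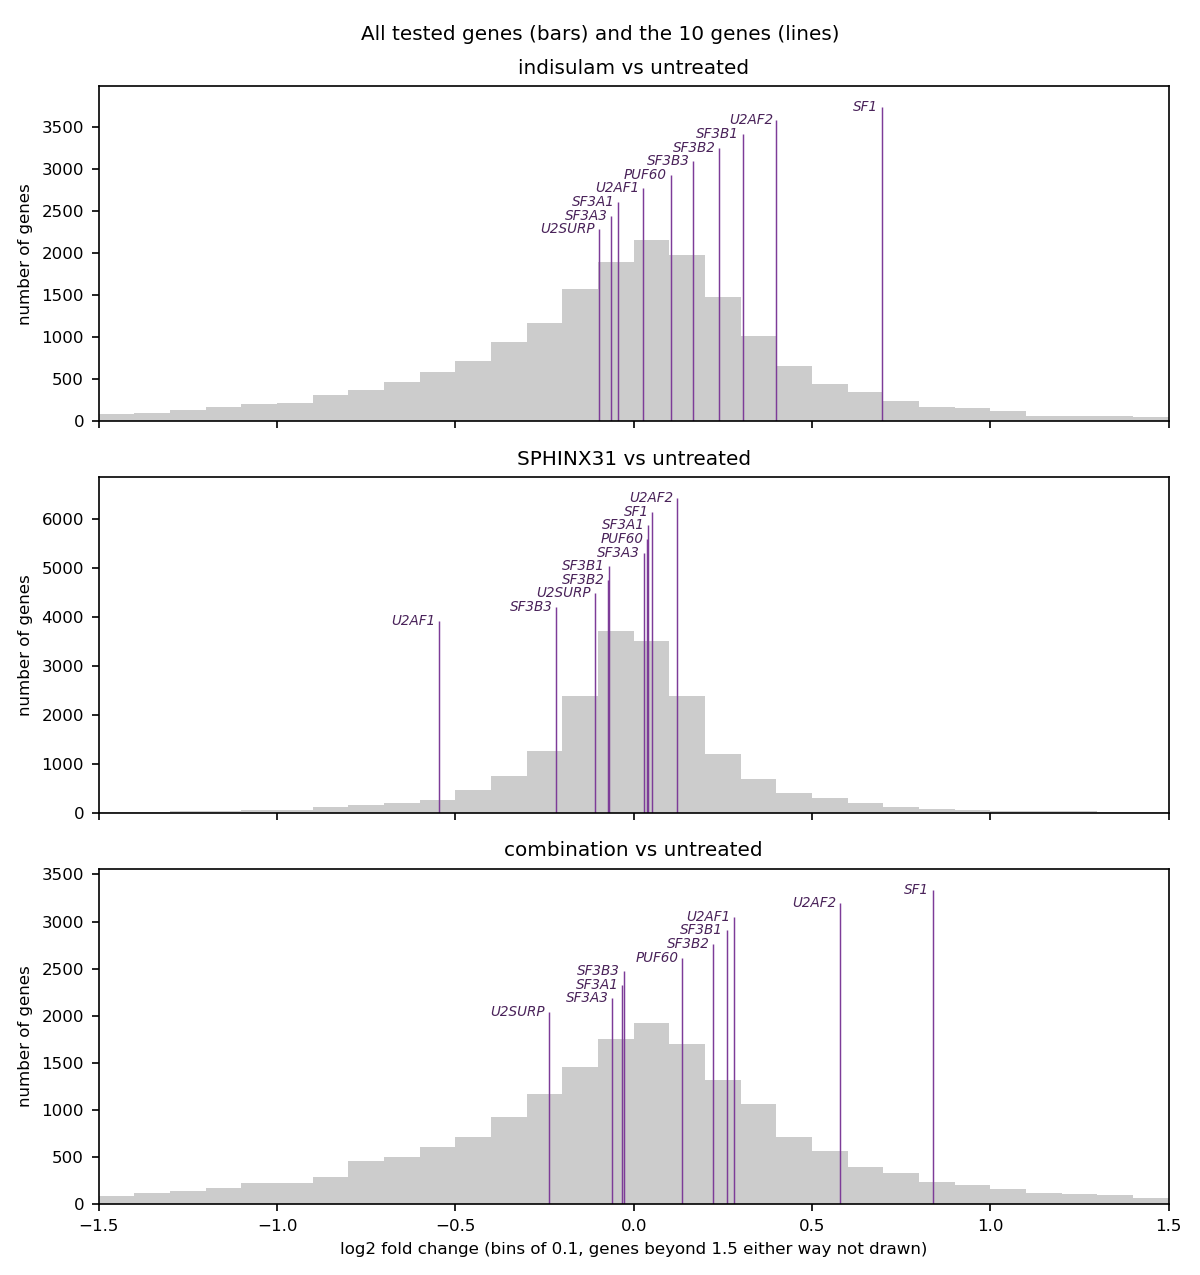
Number of tested genes by log2 fold change in bins of 0.1 (grey bars) with the 10 genes marked by labelled lines whose heights are staggered for legibility only, in 3 comparisons against untreated cells on linear axes. With indisulam and with the combination SF1 and U2AF2 lie furthest to the right of the members, and with SPHINX31 all members other than U2AF1 and SF3B3 lie between -0.11 and 0.12.

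Genes whose pattern over the 6 treated libraries was most like that of a member were sought among 9906 genes whose log2 CPM averaged 3 or more. Likeness was the Euclidean distance between log2(CPM + 0.5) values relative to the untreated mean. SF1 was closest to TAMM41 (distance 0.0970), VPS41 (0.110) and C4orf33 (0.131). U2AF2 was closest to GM2A (0.0811), TOMM20 (0.0816) and RAP1GAP2 (0.0836). For U2AF1 the nearest genes, TUBG2 (0.253), WDR6 (0.287) and SNRNP70 (0.302), lay at larger distances. U2AF1 itself had an average log2 CPM of -0.30, far below that of the candidates, so that the offset of 0.5 weighed more on its values. The part of this offset and of low counts in its distances was not tested.

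The rest of the pathway was described with 27 other genes of the U2 snRNP and of branch point and 3′ splice site recognition, of which 26 were tested and U2AF1L5 had too few counts. This list was chosen with earlier results of these data known, so that its counts of calls are descriptions only. With indisulam 16 of the 26 rose and 4 fell, with a median log2 fold change of 0.20. Of all tested genes 20.1% were called higher and 23.5% lower. The total of 20 called was the same with RLE size factors, library totals or DESeq2, although not all of the same genes passed. Some calls were lost when 1 library was left out. With the combination 15 rose and 3 fell, also with a median of 0.20, where 23.8% of all tested genes were called higher and 26.3% lower. The highest with indisulam were SMNDC1, a Tudor domain protein of spliceosome assembly, with 0.75 (SE 0.0578, adjusted p = 3.9e-07), and U2AF1L4, a paralog of U2AF1, with 0.73 (SE 0.138, adjusted p = 0.000828). The lowest were the RNA-binding splicing regulators RBM10, with -0.51 (SE 0.0517, adjusted p = 4.57e-06), and its paralog RBM5, with -0.41 (SE 0.0872, adjusted p = 0.00178). With the combination the same 4 genes were at the ends, U2AF1L4 at 1.20, SMNDC1 at 0.78, RBM10 at -0.63 and RBM5 at -0.43.

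With SPHINX31 alone none of the 26 was called by edgeR's quasi-likelihood test or by DESeq2. At an unadjusted p under 0.05, 6 of the 26 passed edgeR's test, where 4501 of all 18661 tested genes did. Without a filter on low counts 2 of the 26 were called, where 2138 of 34831 genes were. Some also passed when SPHINX31 replicate 2 was left out. Against indisulam alone 2 of the 26 were called, where 7.50% of all tested genes were, 3.17% as higher and 4.32% as lower. The combination had U2AF1L4 higher, by 0.47 (adjusted p = 0.0367), and SNRPA1, a protein of the U2 snRNP core, lower, by -0.25 (adjusted p = 0.0125). The U2AF1L4 call was lost with DESeq2 (adjusted p = 0.137), with only the groups compared (adjusted p = 0.052) and without any 1 of the untreated, indisulam or combination libraries, and that of SNRPA1 without indisulam replicate 1 (-0.21, adjusted p = 0.111) or either combination library. Against SPHINX31 alone 17 were higher and 6 lower, where 23.4% of all tested genes were called higher and 26.5% lower, with U2AF1L4 (1.07) highest and RBM10 (-0.63) and RBM5 (-0.42) lowest.

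U2AF1 has paralogs that, unlike its copy, could be counted. U2AF1L4 had 1.83 CPM in both untreated libraries, 3.25 and 2.81 with indisulam, 2.05 and 1.95 with SPHINX31 and 4.44 and 3.97 with the combination. The groups did not overlap, although U2AF1L4 shares its strand and position with another gene, so that reads may be divided between them. ZRSR2, which recognizes the 3′ splice site of minor introns, rose by 0.32 on the log2 scale with indisulam (adjusted p = 0.00542, lost without indisulam replicate 1 with adjusted p = 0.052) and by 0.48 with the combination (adjusted p = 0.000229).

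The genes of SF3A and SF3B that are not members were named after their values were seen. Among SF3B subunits with indisulam, SF3B4 rose by a log2 fold change of 0.25 (adjusted p = 0.000893), SF3B6 by 0.24 (adjusted p = 0.00143) and SF3B5 by 0.19 (adjusted p = 0.0145), whereas PHF5A was at 0.11 (adjusted p = 0.181). Together with SF3B1, SF3B2 and SF3B3 these were 6 of 7 subunits called higher, where 20.1% of all tested genes were. The SF3B3 call was lost when some single libraries were left out, as given above. The tested genes also include genes with far fewer counts, and the part of count depth in this difference was not tested. In SF3A, SF3A2 rose by 0.23 (adjusted p = 0.0252), whereas SF3A1 and SF3A3 were not called. The call of SF3B5 was lost without untreated replicate 1 (adjusted p = 0.0586), untreated replicate 2 (adjusted p = 0.0952) or indisulam replicate 2 (adjusted p = 0.0992), and that of SF3A2 without the same libraries (adjusted p = 0.057, 0.139 and 0.156).

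U2SURP forms a complex with RBM17 and CHERP, both in the list of 27. With the combination, where U2SURP fell, RBM17 was at -0.14 on the log2 scale (adjusted p = 0.0569) and CHERP rose by 0.35 (adjusted p = 0.000367). With indisulam RBM17 had -0.09 (adjusted p = 0.217) and CHERP rose by 0.21 (adjusted p = 0.0153), a call lost without untreated replicate 2 (adjusted p = 0.134) or indisulam replicate 2 (adjusted p = 0.125).

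**Figure D4:**
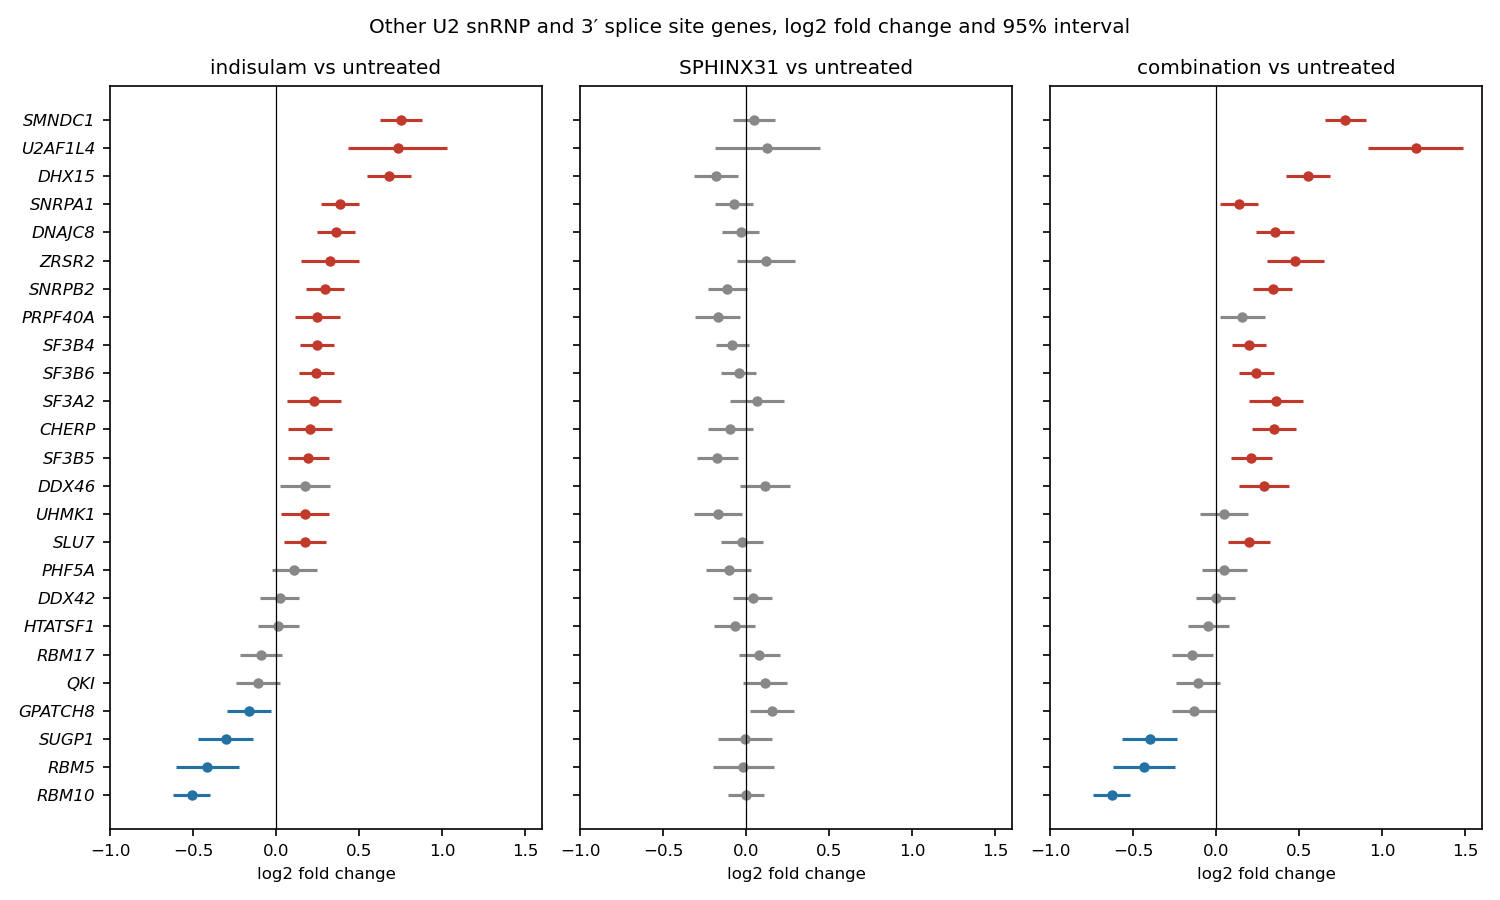
Log2 fold change (points) and 95% interval (lines) of 25 of the 26 tested other genes of the U2 snRNP and 3′ splice site recognition, ordered by their change with indisulam, where red marks genes called higher, blue genes called lower and grey genes with an adjusted p of 0.05 or more. SMNDC1 and U2AF1L4 are at the top and RBM10 and RBM5 at the bottom with indisulam and with the combination, and all are grey with SPHINX31.

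The promoters of the members were searched for common motifs in the 250 bases before the RefSeq start (GRCh38.p14), on both strands. The windows used here covered 8 of the 10 genes, with 9 windows in all, and SF3B3 and PUF60 were not analysed. SF3B1 had overlapping windows, from 197435029 and from 197435094, so that the windows are not all separate promoters. Those of U2AF2, U2SURP and SF3B2 lay inside the GENCODE spans of the genes, that of U2SURP at 143001320 to 143001569. Some others overlapped the spans in part. The GC box GGGCGG was in 5 of 9 windows, against 42.6% of 35116 windows of this length. The ETS core CCGGAA was also in 5 of 9, against 14.5%. The CCAAT box was in the windows of SF1, with 3 matches, and U2SURP, with 1, against 32.0% of all windows, and TATAAA was in none of the 9, against 10.7%. Since the data hold no binding, these are descriptions of the letters only.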

How the data were processed

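Total RNA of A549 cells was made into stranded libraries of polyadenylated RNA by the authors and sequenced as paired-end reads of 150 bases. The values deposited by the authors are raw counts of reads per Ensembl gene, with unassigned reads listed separately (14.0% to 17.0% of the reads recorded per library, left out here). The submitters' processing notes name HISAT2 2.2.1, HTSeq and GRCh38. The strand setting and annotation of the counting are not given in the sources used here. Among the members and pathway genes named, U2SURP, SF3B3, SNRPA1, RBM5 and CHERP also overlap other annotated genes on the same strand. Several others overlap a gene on the opposite strand. Reads of these genes may likewise be mixed or lost. Gene names, positions and lengths were taken from GENCODE release 44.

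Counts were filtered with edgeR's filterByExpr, scaled with TMM (factors 0.978 to 1.02) and fitted together over the 8 libraries for edgeR's quasi-likelihood test (4 residual degrees of freedom), with Benjamini-Hochberg adjustment over 18661 genes and a threshold of 0.05. The test shared its estimate of the spread across genes, so that p-values and intervals rested on more than these 4 degrees of freedom. The biological coefficient of variation was 0.0491. Groups follow the treatment labels. Replicate libraries held different counts, beyond counting error (chi-square divided by its degrees of freedom 11.1 to 18.3). R 4.3.3, edgeR 4.0.16, DESeq2 1.42.0 and Python 3.11.15 were used. The edgeR test was also run on simulated data, and the outcome is not given here. Alternatives were RLE size factors, library totals, DESeq2, 2 other filters, only the groups compared, a replicate block, leaving out each library, adding U2AF1 and U2AF1L5 and another gene length.

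Named were all members, U2AF1 paralogs, the 2 highest and 2 lowest called genes of the 27 per comparison, and the 3 genes nearest to each of the 3 members with the largest change. 1 of the 27 is not reported here by name. SF3A2, SF3B4, SF3B5, SF3B6, PHF5A, RBM17 and CHERP were named after their values were seen. The members and lists were chosen with earlier results of these data known.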

Additional observations from a re-analysis of the deposited data

How the results depend on the processing

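Of the log2 fold changes of the 10 genes recomputed under the alternatives, 917 stayed on their side of the threshold, 12 passed only under the alternative, 25 no longer passed and none that passed in either fit turned its direction. The calls of SF1, U2AF2, SF3B1 and SF3B2 with indisulam and with the combination held under every alternative. Leaving out 1 library in turn gave 482 to 1810 genes called with SPHINX31 (482 without untreated replicate 1), 440 to 1612 for the combination against indisulam (440 without combination replicate 2) and 0 to 1 for the interaction, with 0 to 1 and 0 to 3 members called in the first and second of these. Scaling by library totals alone called 2 members with SPHINX31, beside 1856 of 18661 genes. Fitting only the groups compared called 1 member for the combination against indisulam, beside 1271 of 17806 genes. The interaction had 30 genes with DESeq2 and 94 without a filter on low counts, and no cause was tested. The replicate numbers did not pair the libraries in a uniform way. Over 9490 genes, same-numbered deviations correlated at 0.459 between untreated and SPHINX31 libraries. Those of indisulam correlated at -0.584 with untreated and at -0.503 with SPHINX31 libraries, and those of the combination between 0.0205 and 0.180 with the other groups. The main fit held no term for such shared variation, and its source was not tested. A fit with a replicate block called 7851 genes with indisulam, 1330 with SPHINX31, 9077 with the combination, 1169 for the combination against indisulam, 9074 against SPHINX31 and 0 for the interaction, and 1 member for the combination against indisulam. Exchanging the 2 indisulam numbers in this block, an alternative added after seeing the data, gave 2630 genes with SPHINX31, 2252 for the combination against indisulam and 12 for the interaction. Without a library, a group of 1 was assumed to vary like the others. With 30 to 68 counts, U2AF1 was the member most limited by depth.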

Other observations

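U2AF1 was not the only gene with a copy that GENCODE calls an artifactual duplication, a set looked up after its counts were seen. There were 15 such protein-coding genes, all on chromosome 21, and 11 of them had under 100 counts in every library. The share of all protein-coding genes with so few counts is not given here. Among the 11, C21orf140, CRYAA, DNMT3L and SMIM34 had 0 counts on both gene and copy in every library. Whether low counts came from the copies or from low expression was not tested. TRAPPC10 had 1171 to 1618 counts with 11 to 48 on its copy, CBS 270 to 1214 with 6 to 48, and PWP2 113 to 176 with 14 to 23. SIK1 was the exception in that its copy, with 981 to 1273 counts, had more than the gene itself, with 298 to 414. Sequence identity to the copy was computed for U2AF1 only.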
